A study of Mus musculus with 37 samples.

Results

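The expression of 10 genes of the glucocorticoid pathway was examined in mouse left ventricle after cardiac arrest. They were Nr3c1 and Nr3c2, which encode the glucocorticoid and mineralocorticoid receptors, Hsd11b1, which encodes an enzyme that regenerates active glucocorticoid inside cells, and 7 genes known as glucocorticoid targets, namely Fkbp5, Zbtb16, Tsc22d3, Klf9, Sgk1, Errfi1 and Dusp1. They were taken by gene symbol from a table of 56748 genes, each symbol matched 1 row, and all 10 were among the 16579 genes tested. Each had at least 0.5 FPKM (fragments counted on a gene, scaled by its length and by the size of the library) in all 37 libraries.

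Bulk RNA sequencing covered 9 groups of male and female C57BL/6J mice aged 8 to 10 weeks. Naïve mice (n = 5) were anaesthetised with isoflurane and had neither intubation nor injection. Adr mice, called sham in the sample labels, were anaesthetised, intubated and ventilated, had 40 µL of saline injected into the left ventricle and 8 min later 500 µL of adrenaline at 15 µg/mL by the same route. Arrest mice were treated alike except that the 40 µL held 0.5 M potassium chloride, that the 8 min were spent in asystole, and that chest compressions went with the adrenaline. Adr and Arrest hearts were collected after 0.5, 1, 3 or 7 days (n = 4 per group and time). Arrest therefore differed from Adr by potassium chloride, asystole and compressions together. Adr differed from Naïve by intubation, ventilation and injection as well as adrenaline. Naïve hearts were collected after baseline imaging, whereas Adr and Arrest mice recovered and were imaged again first. Comparisons with Naïve therefore also hold recovery time and repeat imaging. The apex was discarded. The time of day of collection was not given in the sources used here, whereas glucocorticoid secretion follows a daily rhythm. Each library was taken as 1 mouse, and p-values measure the spread between libraries.

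Libraries held 13.2 to 30.2 M fragments counted on genes (median 14.9 M). Replicate 3 of Adr at 3 days stood apart, with 9.36% of its fragments on mitochondrial genes against 20.8 to 30.9% in the others. It held 17.2 M fragments, and a fragment per kilobase of gene was worth 0.0414 FPKM in it. In replicate 2 of Arrest at 0.5 days, with 17.9 M fragments, that worth was 0.0591 FPKM. The FPKM of the Adr replicate were thus scaled by more fragments than were counted on genes, which lowers them all. The study excluded 1 Adr sample at 3 days for poor quality, the labels do not say which, and all 4 were kept here. The summed level of 6 cardiomyocyte markers was 3158 FPKM in that replicate and 6546 to 15148 FPKM in the other 36 libraries, while the 6 monocyte and macrophage markers summed to 2527 FPKM in it and to 328 to 1180 FPKM elsewhere. Leaving it out moved the share of all genes that differed from Naïve from 3.2% to 5.49% for Arrest at 0.5 days and from 7.11% to 10.3% at 1 day.

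Glucocorticoids are steroid hormones released by the adrenal cortex under stress. They cross the cell membrane and bind a receptor that waits in the cytoplasm with the chaperone HSP90 and its partner proteins. The bound receptor enters the nucleus, attaches to DNA at short palindromes called glucocorticoid response elements and raises or lowers the transcription of nearby genes. In cardiomyocytes both receptors can bind glucocorticoids, because these cells hold little of the enzyme HSD11B2 that inactivates the hormone. Hsd11b2 itself was low in these libraries, at 0.118 ± 0.264 FPKM (SD, n = 5) in Naïve and 0.252 ± 0.311 FPKM (SD, n = 4) in Arrest at 1 day.

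Promoter sequence from RefSeq (build GRCm38.p6, 250 bases before to 50 after each start) was found for 8 of the 10 genes, in 16 windows. Nr3c1 and Zbtb16 had no entry. The letters AGAACA, any 3 bases and then TGTTC, which spell a glucocorticoid response element, were searched on both strands and occurred in 1 of the 16 windows, at Sgk1, against 16 of 32851 windows in the whole table (0.0487%). A looser form (GNACA, any 3 bases and then TGTNC), which every match of the first also matches, occurred in 0.475% of all windows and again at Sgk1 alone among these genes. The cAMP response element TGACGTCA, which is bound by CREB, a factor activated downstream of adrenergic receptors, occurred at Errfi1 and Dusp1 and in 1.79% of all windows. Sgk1 does not share its element with Errfi1 and Dusp1. It has 6 of the 16 windows and Errfi1 has 2, which gives these genes more places for a match. The matches are shown because neither element occurred at the other 5 genes with an entry. Capitals mark the element (15 bases in Sgk1, 1 more than the letters searched).
Sgk1, chr10:21993671-21993745, plus strand, element 189 to 175 bases before 1 of its 6 listed starts: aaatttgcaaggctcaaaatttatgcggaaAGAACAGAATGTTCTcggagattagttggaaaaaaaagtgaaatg
Errfi1, chr4:150854989-150855056, plus strand, element 51 to 44 bases before 1 of its 2 listed starts: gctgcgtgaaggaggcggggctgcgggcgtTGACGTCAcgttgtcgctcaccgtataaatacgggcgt
Dusp1, chr17:26508578-26508645, minus strand, element 143 to 136 bases before its start: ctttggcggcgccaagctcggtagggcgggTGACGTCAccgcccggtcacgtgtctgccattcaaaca
A match of letters is a description of these windows only. Elements outside the windows were not searched.

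The Naïve mice served as controls for all 8 other groups, the Arrest and Adr arms were set against each other at each time, and 1 was set against 7 days within each arm. A single limma model of log2(FPKM + 1) over all 37 libraries was used, p-values were adjusted over all genes tested in a comparison, and genes at an adjusted p of at most 0.05 are said to have risen or fallen. Fold changes on this scale understate the change of genes at low FPKM. Adr and Arrest share the Naïve libraries as controls. In Arrest, 2 of the 10 genes differed from Naïve at 0.5 days, when 3.2% of all genes did, and 4 differed at 1 day, when 7.11% did. None of the 10 did at 3 days, when 0.139% of all genes differed, or at 7 days, when 0% did. In Adr, 1 of the 10 differed at 0.5 days, against 0.187% of all genes, and 1 at 1 day, against 0.627%. None did at 3 or 7 days, when 0% of all genes differed. Among these zero counts, an unadjusted p under 0.05 was reached by 3 genes (Nr3c1, Hsd11b1 and Fkbp5) in Arrest at 3 days and by 0 in the other 3 comparisons, and limma voom on recovered fragments also called 0 in each.

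Between the Arrest and Adr arms, none of the 10 genes passed at 0.5, 1 or 3 days, when 0% of all genes did, nor at 7 days, when 0.00603% did (1 gene). Each of these 4 counts was also 0 at an unadjusted p under 0.05 and in limma voom. The smallest p among the 40 tests was that of Dusp1 at 1 day, at 0.98 on the log2 scale (SE 0.48, adjusted p = 0.76 in limma). At 1 day Fkbp5 was higher in Arrest by 0.85 on the log2 scale (95% interval -0.39 to 2.08) and Sgk1 by 0.83 (-0.03 to 1.69). These wide intervals do not show that the arms were alike.

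**Figure D1:**
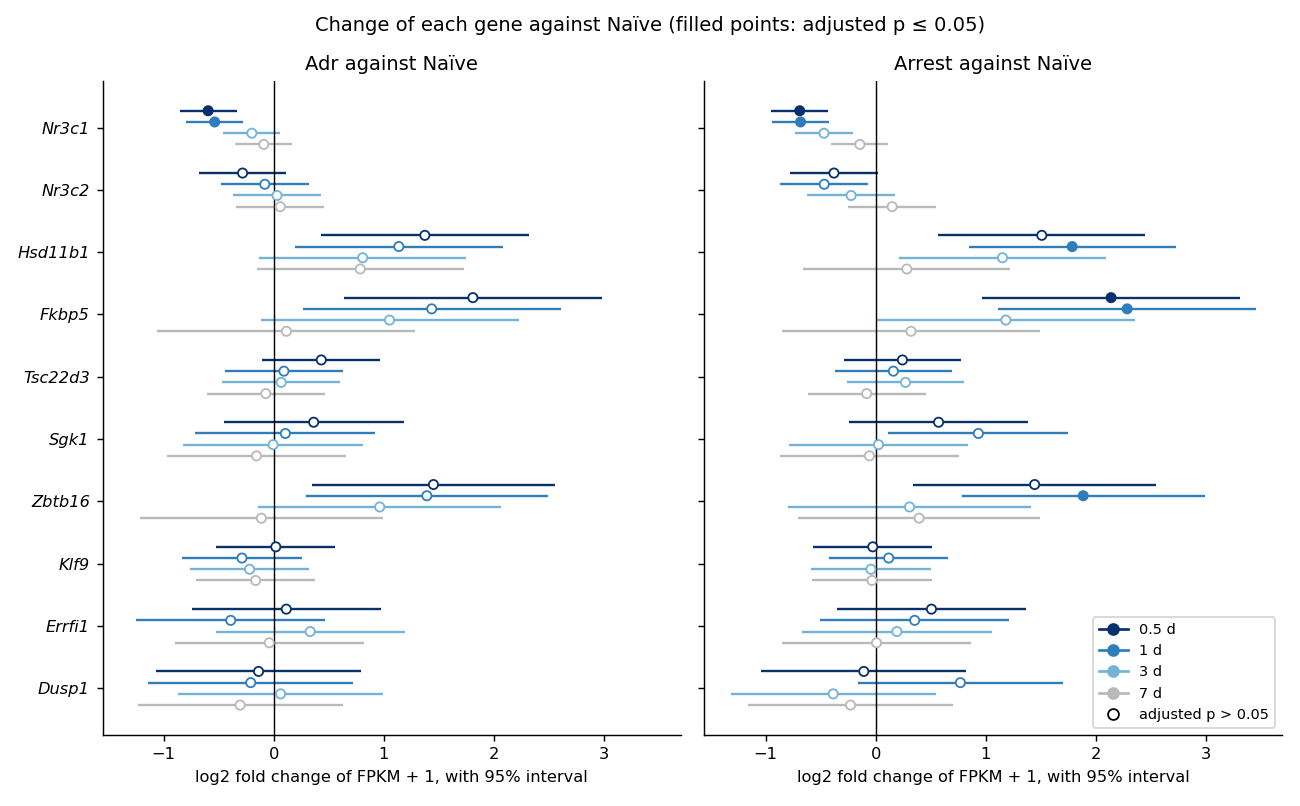
Log2 fold change of FPKM + 1 of each of the 10 genes against Naïve, with 95% intervals, for Adr (left) and Arrest (right) at 4 times; filled points have an adjusted p of at most 0.05. At 0.5 and 1 days, in both arms, Nr3c1 lies left of 0 and Fkbp5, Hsd11b1 and Zbtb16 lie right of 0 with wide intervals.

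Nr3c1 (ENSMUSG00000024431, chromosome 18), the glucocorticoid receptor, fell early in both arms and was the least variable of the 10 genes between mice of a group. Naïve libraries held 15.4, 13.3, 12.9, 15.2 and 13.02 FPKM. Values were 6.24, 7.34, 10.04 and 9.97 FPKM in Arrest at 0.5 days and 8.18, 8.38, 7.55 and 9.14 FPKM at 1 day. All 8 of these libraries lay below every Naïve library, so the groups did not overlap. Against Naïve the log2 fold change was -0.69 at 0.5 days (SE 0.13, adjusted p = 0.0033) and -0.68 at 1 day (SE 0.13, adjusted p = 0.0018), a 1.61- and 1.60-fold fall. At 3 days Arrest libraries held 7.09, 10.1, 11.7 and 10.8 FPKM, again all below Naïve, but the difference of -0.47 (SE 0.13) did not pass (adjusted p = 0.0998), and without replicate 1 it came to -0.33 (adjusted p = 0.28). At 7 days, 11.1, 11.7, 13.6 and 13.9 FPKM overlapped with Naïve.

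The Adr libraries followed a similar course in their own values. They held 9.84, 9.27, 9.78 and 6.91 FPKM of Nr3c1 at 0.5 days and 10.5, 9.41, 9.29 and 8.05 FPKM at 1 day. Again none of the 8 reached the lowest Naïve library. On the log2 scale Nr3c1 fell by 0.60 (SE 0.13, adjusted p = 0.038) at 0.5 days and by 0.54 (SE 0.13, adjusted p = 0.042) at 1 day. By 3 days the values were 12.96, 12.5, 10.8 and 11.8 FPKM and by 7 days 13.3, 12.3, 14.1 and 12.4 FPKM, which overlapped with Naïve. Arrest minus Adr was -0.09 (95% interval -0.37 to 0.18) at 0.5 days and -0.15 (-0.42 to 0.13) at 1 day.

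Within the Arrest arm, Nr3c1 was lower at 1 than at 7 days, with a difference of -0.54 on the log2 scale (SE 0.13, adjusted p = 0.03). It was the 1 gene of the 10 to pass in that comparison, where 1.88% of all genes did. Between Adr at 1 and 7 days none of the 10 passed, against 0.0422% of all genes, although 3 had an unadjusted p under 0.05 and Nr3c1 came to -0.45 (SE 0.13, adjusted p = 0.23); voom called 0 as well. Over all 9 groups at once, Nr3c1 (adjusted p = 0.0014) and Fkbp5 (adjusted p = 0.044) differed, against 3.89% of all genes. From the highest to the lowest mean the order for Nr3c1 was Naïve, Adr 7 days, Arrest 7 days, Adr 3 days, Arrest 3 days, Adr 1 day, Adr 0.5 days, Arrest 0.5 days and Arrest 1 day, and the libraries of every pair of neighbours overlapped.

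The Arrest calls for Nr3c1 held in all 10 fits that left out a library, with adjusted p up to 0.025 at 0.5 days and 0.013 at 1 day. The call at 1 day was lost with the number in the sample descriptions as a covariate (log2 fold change -0.51, adjusted p = 0.22). That number does not overlap between Arrest at 1 day and Naïve. The Adr call at 0.5 days was lost without Naïve replicate 1, 4 or 5 or any of the 4 Adr replicates (adjusted p up to 0.17), and that at 1 day without Naïve replicate 1, 2, 4 or 5 or Adr replicate 2, 3 or 4 (up to 0.12). The call of Arrest at 1 against 7 days was lost without replicate 1, 2 or 3 at 1 day or 2, 3 or 4 at 7 days (up to 0.13). Nr3c1 is long (7684 bases in the table), and removing each library's trend with gene length left the Arrest calls against Naïve in place and ended both Adr calls (adjusted p = 0.084 and 0.093) and that of 1 against 7 days (0.068). In bulk tissue, fewer cells that express a gene and less of its RNA per cell cannot be told apart.

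Nr3c2 (ENSMUSG00000031618, chromosome 8), the mineralocorticoid receptor, was expressed at a lower level per length than Nr3c1, at 2.62 ± 0.84 FPKM (SD, n = 5) against 14.0 ± 1.2 FPKM in Naïve. Naïve libraries held 3.76, 3.01, 2.19, 1.53 and 2.62 FPKM. Arrest libraries at 1 day held 1.03, 1.498, 1.60 and 2.28 FPKM, so that 2 of 4 lay below every Naïve library. The difference from Naïve was -0.47 on the log2 scale (SE 0.20, adjusted p = 0.15), and Nr3c2 did not pass in any comparison. In Adr at 3 days, replicate 3 held 1.20 FPKM and the other libraries 3.04 to 3.71 FPKM. Without that replicate in the fit, Arrest at 1 against 7 days passed for Nr3c2 (log2 fold change -0.62, adjusted p = 0.047).

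Hsd11b1 (ENSMUSG00000016194, chromosome 1), the enzyme that turns inert 11-keto steroids back into active glucocorticoid, rose in Arrest at 1 day. Naïve libraries held 2.65, 1.33, 2.72, 3.44 and 0.63 FPKM, and Arrest libraries at 1 day 6.32, 8.98, 13.7 and 9.14 FPKM, without overlap. The log2 fold change was 1.78 (SE 0.46, adjusted p = 0.016), and the mean was 4.43 times the Naïve mean. At 0.5 days the Arrest libraries, at 7.82, 9.77, 5.72 and 6.93 FPKM, were also all above Naïve, but the difference of 1.51 (SE 0.46) did not pass (adjusted p = 0.064). It passed without replicate 3 of Adr at 3 days in the fit (adjusted p = 0.0387). The call at 1 day was lost without replicate 5 of Naïve (adjusted p = 0.0504) or without replicate 3 of Arrest (0.074), with a replicate block (0.052) and with the description number as a covariate (0.083).

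In Adr, Hsd11b1 was uneven between mice. The 4 libraries held 5.61, 2.75, 9.99 and 11.7 FPKM at 0.5 days and 2.93, 2.83, 12.9 and 7.64 FPKM at 1 day. Of these 8 libraries, 5 lay above every Naïve library and 3 within the Naïve range, and neither time passed (adjusted p = 0.17 and 0.24). In Arrest at 3 days replicate 1 reached 17.5 FPKM, while the others held 6.29, 2.84 and 2.63 FPKM.

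**Figure D2:**
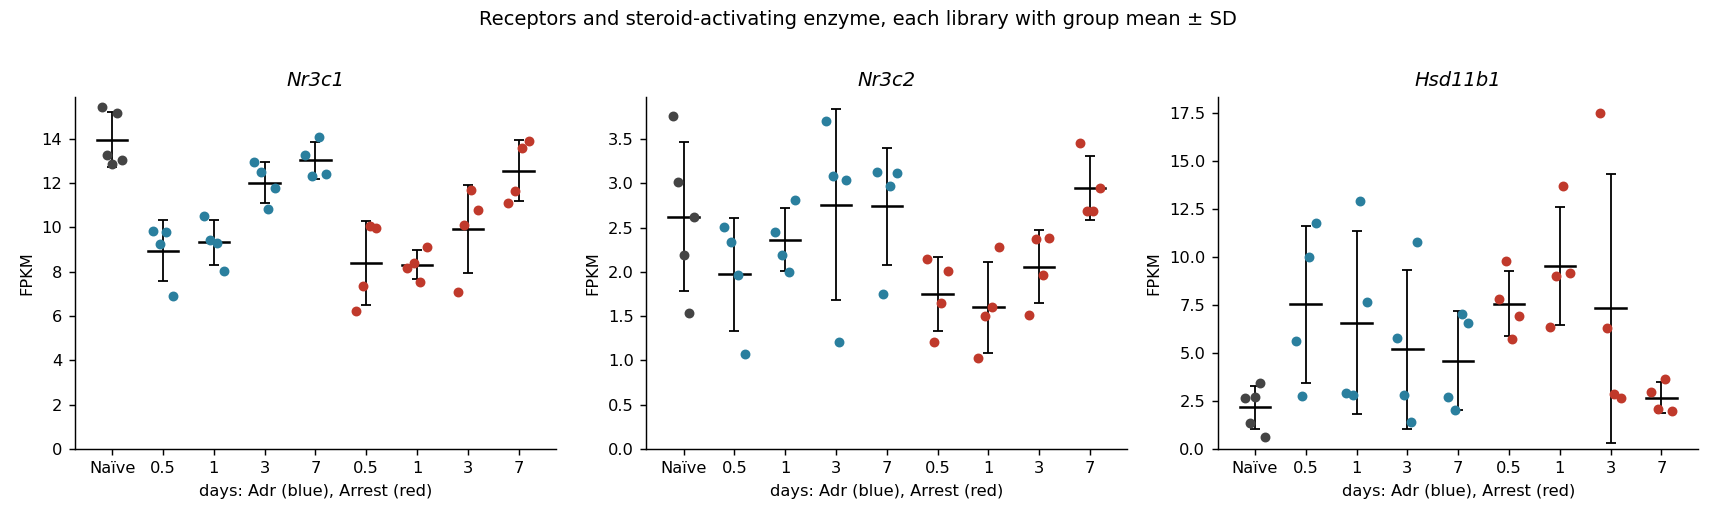
FPKM of Nr3c1, Nr3c2 and Hsd11b1 in each of the 37 libraries (points) by group and day, with the group mean (horizontal line) and SD (error bar); Adr is blue and Arrest red. All 8 Arrest and all 8 Adr libraries at 0.5 and 1 days lie below the 5 Naïve libraries for Nr3c1.

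Fkbp5 (ENSMUSG00000024222, chromosome 17) encodes FKBP51, a co-chaperone that lowers the receptor's affinity for its ligand, and is among the genes most responsive to glucocorticoids in many tissues. It rose in Arrest at 0.5 and 1 days. Naïve libraries held 1.19, 1.10, 2.11, 2.18 and 0.82 FPKM. Arrest libraries held 9.43, 17.7, 5.59 and 9.02 FPKM at 0.5 days and 12.7, 8.13, 21.3 and 5.90 FPKM at 1 day. All 8 lay above every Naïve library. On the log2 scale Fkbp5 rose by 2.14 (SE 0.58, adjusted p = 0.036) at 0.5 days and 2.28 (SE 0.58, adjusted p = 0.014) at 1 day, and the means were 7.04 and 8.11 times the Naïve mean.

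The Adr libraries for Fkbp5 fell into high and low values within a group. At 0.5 days they held 3.71, 2.05, 18.5 and 17.5 FPKM, at 1 day 1.07, 4.30, 12.4 and 11.4 FPKM, and at 3 days 2.64, 1.78, 4.68 and 10.01 FPKM. Replicates 3 and 4 were the high libraries at both early times, and 1 library at each of these 3 times stayed within the Naïve range. Neither early comparison passed, with log2 fold changes of 1.81 (SE 0.58, adjusted p = 0.15) and 1.43 (SE 0.58, adjusted p = 0.23). At 7 days values were 1.28, 2.20, 1.92 and 1.21 FPKM in Adr and 2.08, 2.80, 1.62 and 1.73 FPKM in Arrest, within or next to the Naïve range.

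At 3 days in Arrest, replicate 1 held 25.8 FPKM of Fkbp5, the highest of all libraries, and the other 3 held 1.98, 2.39 and 2.36 FPKM. Against Naïve the group differed by 1.18 on the log2 scale (SE 0.58, adjusted p = 0.36) with that library and 0.42 (SE 0.53, adjusted p = 0.82) without it. The call for Fkbp5 at 1 day was lost in 1 of the 10 fits that left out a library (without Arrest replicate 3, adjusted p = 0.074) and with the description number as a covariate (0.19). The call at 0.5 days was lost in 6 of 10, namely without Naïve replicate 1, 2 or 5 or Arrest replicate 1, 2 or 4, with adjusted p up to 0.16 (without Arrest replicate 2, log2 fold change 1.87), and also without a filter (0.071), with voom (0.056), with a replicate block (0.085) and with the description number (0.059). The call over all 9 groups was lost in 22 of 37 such fits. For Fkbp5 too, the libraries of every pair of groups next to each other in the order of means overlapped.

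Zbtb16 (ENSMUSG00000066687, chromosome 9), a zinc finger transcription factor also called PLZF, rose in Arrest at 1 day. Naïve libraries held 3.07, 4.29, 2.82, 1.93 and 2.10 FPKM, and Arrest libraries at 1 day 11.7, 12.8, 17.9 and 10.2 FPKM, without overlap. The log2 fold change was 1.89 (SE 0.54, adjusted p = 0.029), and the mean was 4.62 times the Naïve mean. At 0.5 days Arrest held 5.16, 14.8, 6.32 and 14.3 FPKM, again all above Naïve, but the difference of 1.44 (SE 0.54) did not pass (adjusted p = 0.13). The call at 1 day was lost in 5 of 10 fits that left out a library (Naïve replicate 4 or 5, or Arrest replicate 1, 2 or 3), with adjusted p up to 0.104, and without a filter (0.064), with a replicate block (0.07) and with the description number as a covariate (0.16).

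In Adr, Zbtb16 held 4.99, 2.87, 16.6 and 26.2 FPKM at 0.5 days and 1.79, 12.5, 15.004 and 14.6 FPKM at 1 day. Replicate 1 at 1 day lay below all Naïve libraries and the other 3 lay far above them. The log2 fold changes, 1.45 and 1.39 (SE 0.54 each), did not pass (adjusted p = 0.21 and 0.22). In Arrest at 3 days, replicate 1 held 19.7 FPKM and the others 1.71 to 1.92 FPKM, below every Naïve library. Without replicate 1, the log2 fold change there went from 0.31 (SE 0.54, adjusted p = 0.86) to -0.41 (SE 0.50, adjusted p = 0.81).

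Tsc22d3 (ENSMUSG00000031431, chromosome X), which encodes the anti-inflammatory leucine zipper protein GILZ, and Klf9 (ENSMUSG00000033863, chromosome 19), a Krüppel-like transcription factor, were abundant in every group and passed in no comparison. Group means ran from 35.2 to 52.4 FPKM for Tsc22d3 and from 35.1 to 45.5 FPKM for Klf9, and Naïve held 37.5 ± 6.5 and 40.9 ± 4.9 FPKM (SD, n = 5). The Tsc22d3 values of Adr were 36.1, 39.5, 64.6 and 69.5 FPKM at 0.5 days and 26.1, 26.6, 55.9 and 62.8 FPKM at 1 day. Replicates 3 and 4 were again the high libraries, and those at 1 day straddled the Naïve range of 30.2 to 44.3 FPKM on both sides. In Arrest at 3 days replicate 1 held 64.1 FPKM against 38.3 to 40.8 FPKM in the others. The 95% interval of Tsc22d3 in Arrest against Naïve was -0.29 to 0.78 at 0.5 days and -0.37 to 0.70 at 1 day on the log2 scale. For Klf9 it was -0.57 to 0.51 and -0.42 to 0.66.

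**Figure D3:**
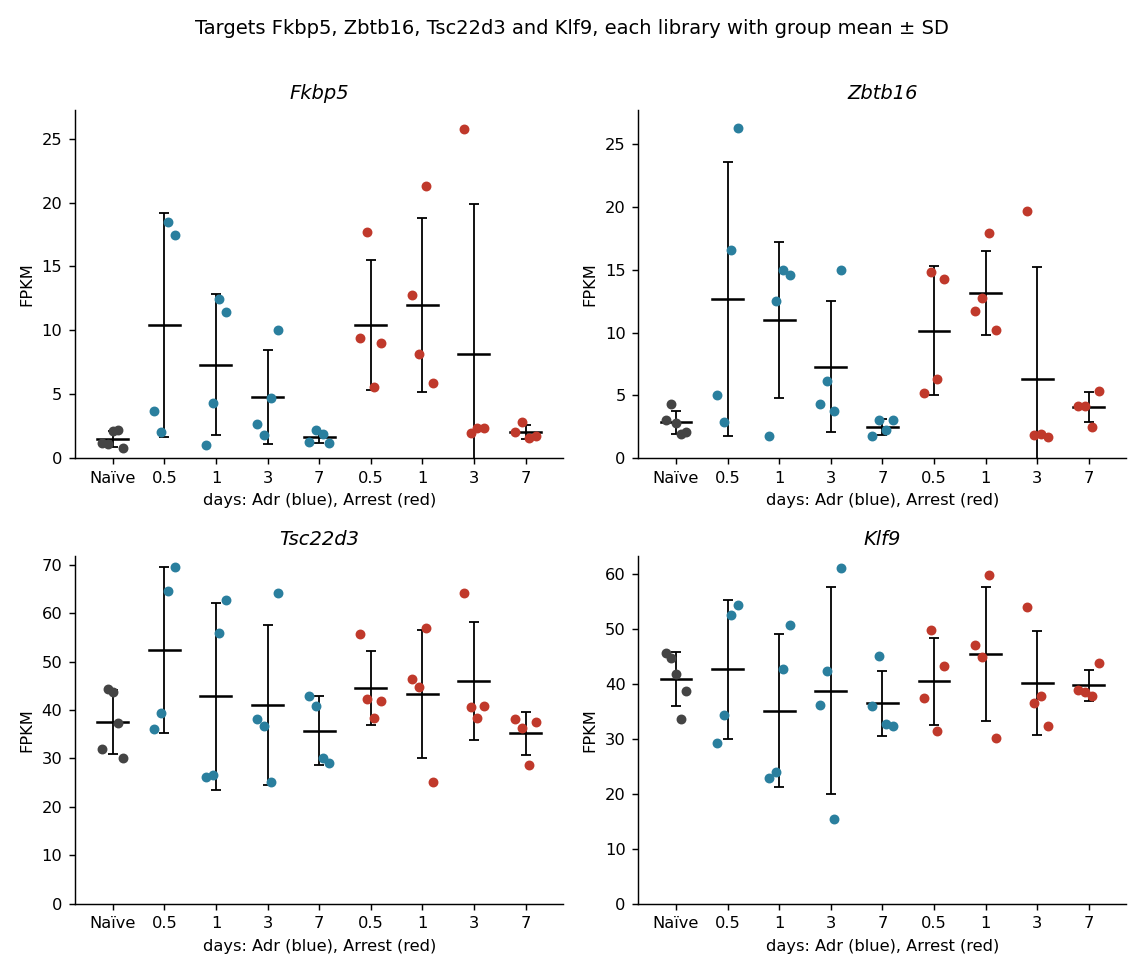
FPKM of Fkbp5, Zbtb16, Tsc22d3 and Klf9 in each of the 37 libraries (points) by group and day, with group mean and SD; Adr is blue and Arrest red, the axes start at 0, and lower error bars that would pass below 0 are cut there. Replicate 1 of Arrest at 3 days holds 25.8 FPKM of Fkbp5, 19.7 of Zbtb16 and 64.1 of Tsc22d3, each above the other 3 libraries of its group.

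Sgk1 (ENSMUSG00000019970, chromosome 10), a serine and threonine kinase that acts on sodium channels, Errfi1 (ENSMUSG00000028967, chromosome 4), an inhibitor of the epidermal growth factor receptor family also called MIG6, and Dusp1 (ENSMUSG00000024190, chromosome 17), a phosphatase that switches off MAP kinases, differed widely between mice of a group after arrest. Naïve libraries held 19.97 to 29.6 FPKM of Sgk1 and 23.3 to 35.3 FPKM of Dusp1. In Arrest at 1 day, Sgk1 came to 66.8, 54.4, 94.6 and 14.1 FPKM and Dusp1 to 75.0, 68.8, 109 and 12.3 FPKM. In both genes replicates 1 to 3 lay above every Naïve library and replicate 4 below every one. Over all 4 libraries the log2 fold change was 0.93 for Sgk1 (SE 0.40, adjusted p = 0.16) and 0.77 for Dusp1 (SE 0.46, adjusted p = 0.34).

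Without replicate 4 of Arrest at 1 day, the comparison with Naïve passed for Sgk1 (log2 fold change 1.492, SE 0.36, adjusted p = 0.011) and Dusp1 (1.43, SE 0.41, adjusted p = 0.027). That library was singled out by its low values of these same genes, so both passes are a description only. The number in the sample description of replicate 4 is 95, while replicates 1 to 3 have 73, 70 and 72. The labels do not say what the number stands for. In Adr at 1 day the library numbered 71 held 58.0 FPKM of Dusp1 and those numbered 97, 98 and 102 held 17.2 to 24.4 FPKM. Sgk1 was less apart, at 35.1 FPKM in the library numbered 71 and 16.5, 24.6 and 32.7 FPKM in the others. With the number as a covariate, the Dusp1 difference of Arrest at 1 day from Naïve was -0.35 (adjusted p = 0.88 in limma). The numbers of these groups do not overlap, so that value rests on the trend fitted within groups. Replicate 4 of Arrest at 1 day held 16.1 M fragments. Its 6 endothelial markers summed to 230 FPKM, against 470 to 607 FPKM in the other 3 libraries of the group and 271 to 311 FPKM in Naïve. The part of endothelial RNA in the Sgk1 and Dusp1 values was not tested. Of those 6 markers, Fabp4 rose and Kdr and Cdh5 fell in Arrest at 1 day (named after their values were seen).

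At 0.5 days in Arrest, replicate 2 was the high library for all 3 genes. Sgk1 held 34.4, 89.5, 15.7 and 36.1 FPKM, Errfi1 13.4, 77.3, 12.6 and 30.8 FPKM, and Dusp1 24.3, 90.6, 11.4 and 22.7 FPKM. Replicate 3 was the lowest in each. Replicate 2 also had the highest endothelial sum of its group, 523 FPKM against 297 to 351 FPKM. Among the markers summed, Emcn rose and Kdr fell in this group, so the sum need not follow endothelial content. Its part in the values of the 3 genes was not tested. Errfi1 ran from 12.9 to 22.1 FPKM in Naïve and held 37.2, 25.7, 30.01 and 9.08 FPKM in Arrest at 1 day, a difference of 0.35 on the log2 scale (SE 0.42, adjusted p = 0.69). Dusp1 in replicate 3 of Adr at 3 days, the library with the low mitochondrial share, held 67.4 FPKM against 20.499 to 31.2 FPKM in the others.

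**Figure D4:**
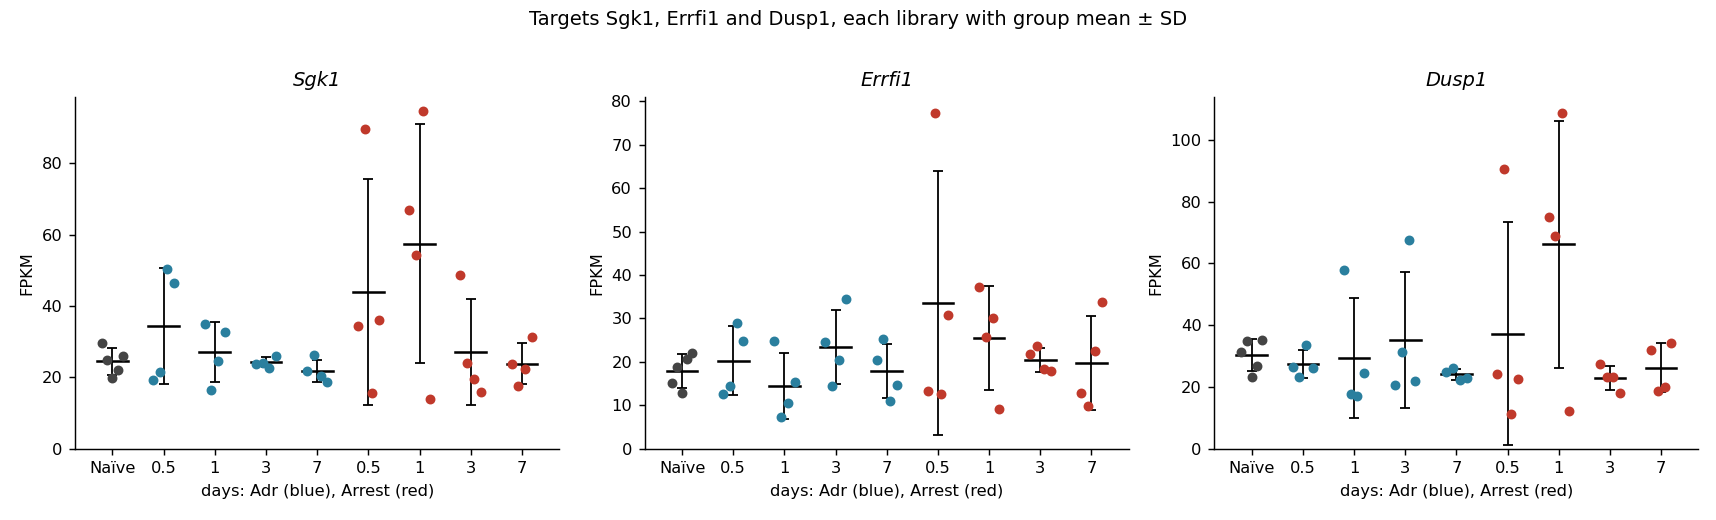
FPKM of Sgk1, Errfi1 and Dusp1 in each of the 37 libraries (points) by group and day, with group mean and SD; Adr is blue and Arrest red. In Arrest at 1 day 3 libraries lie above and 1 below the Naïve libraries for Sgk1 and for Dusp1.

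The spread between mice of a group was next set against that of all genes. The SD of log2(FPKM + 1) within groups was 0.91 for Fkbp5, larger than in 98.5% of the genes tested, 0.86 for Zbtb16 (98.1%), 0.73 for Hsd11b1 (96.2%), 0.72 for Dusp1 (96%), 0.67 for Errfi1 (94.7%) and 0.63 for Sgk1 (93.5%). Tsc22d3 and Klf9 were nearer to the median of all genes (0.30), each at 0.41. The SD was 0.29 for Nr3c2 and 0.18 for Nr3c1, which only 9.83% of genes undercut. The standard error of a comparison with Naïve was accordingly 0.13 for Nr3c1, 0.26 for Tsc22d3, 0.27 for Klf9 and 0.58 for Fkbp5.

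Several of the targets varied together between mice of the same group. After group means were removed, Pearson's r over the 37 libraries passed for 22 of the 45 pairs (permutation within groups, adjusted over the 45 pairs), 19 of them positive and 3 negative. Among the 21 pairs of the 7 targets 14 passed, all positive. An r of at least 0.5 was found in 16 of the 45 pairs (35.6%) and, over all pairs of tested genes, in 1.93%, which is given as a description. Fkbp5 and Zbtb16 had r = 0.86 (Spearman's rho 0.75, adjusted permutation p = 0.0013 and 0.003), and r = 0.79 without the 2 libraries farthest from the median of Fkbp5. Over the 22 pairs, the size of r without the 2 farthest libraries was at least 0.28. Tsc22d3 and Klf9 had r = 0.85 (rho 0.82, adjusted permutation p = 0.00011 and 0.00022), and Fkbp5 and Tsc22d3 had r = 0.74 (rho 0.74, adjusted permutation p = 0.0014 and 0.0015). Hsd11b1 went with the same genes, at r = 0.71 with Fkbp5 (rho 0.61, adjusted permutation p = 0.0019 and 0.0064) and 0.65 with Zbtb16 (rho 0.55, adjusted permutation p = 0.004 and 0.011).

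Sgk1, Errfi1 and Dusp1 formed a further trio, with r = 0.80 for Sgk1 and Dusp1 (rho 0.71), 0.79 for Sgk1 and Errfi1 (rho 0.77) and 0.69 for Errfi1 and Dusp1 (rho 0.56). Their adjusted permutation p was 0.00011, 0.00011 and 0.0074 for r and 0.00022, 0.00022 and 0.013 for rho, and r without the 2 farthest libraries was 0.65, 0.70 and 0.52. The unadjusted p of the first and second of these pairs, 1e-05, is the smallest that the 100000 permutations can give. Dusp1 did not pass with Fkbp5 (r = 0.17, rho 0.13, adjusted permutation p = 0.40 and 0.56) or Zbtb16 (r = 0.03). Sgk1 passed with both groups of genes, for example at r = 0.59 (rho 0.72) with Klf9. Errfi1 passed with Klf9 too (r = 0.42, rho 0.46, adjusted permutation p = 0.029 and 0.025). The 3 negative pairs were Nr3c1 with Fkbp5 (r = -0.60, rho -0.56), Nr3c1 with Tsc22d3 (r = -0.51, rho -0.50) and Nr3c2 with Fkbp5 (r = -0.44, rho -0.47), with adjusted permutation p of 0.0074, 0.0047 and 0.023 for r and 0.0059, 0.011 and 0.023 for rho. Without the 2 farthest libraries r was -0.55, -0.44 and -0.43. With Spearman's rho 21 pairs passed, and without replicate 3 of Adr at 3 days 26 did. The pairs share libraries, and the correlations say nothing of direction.

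**Figure D5:**
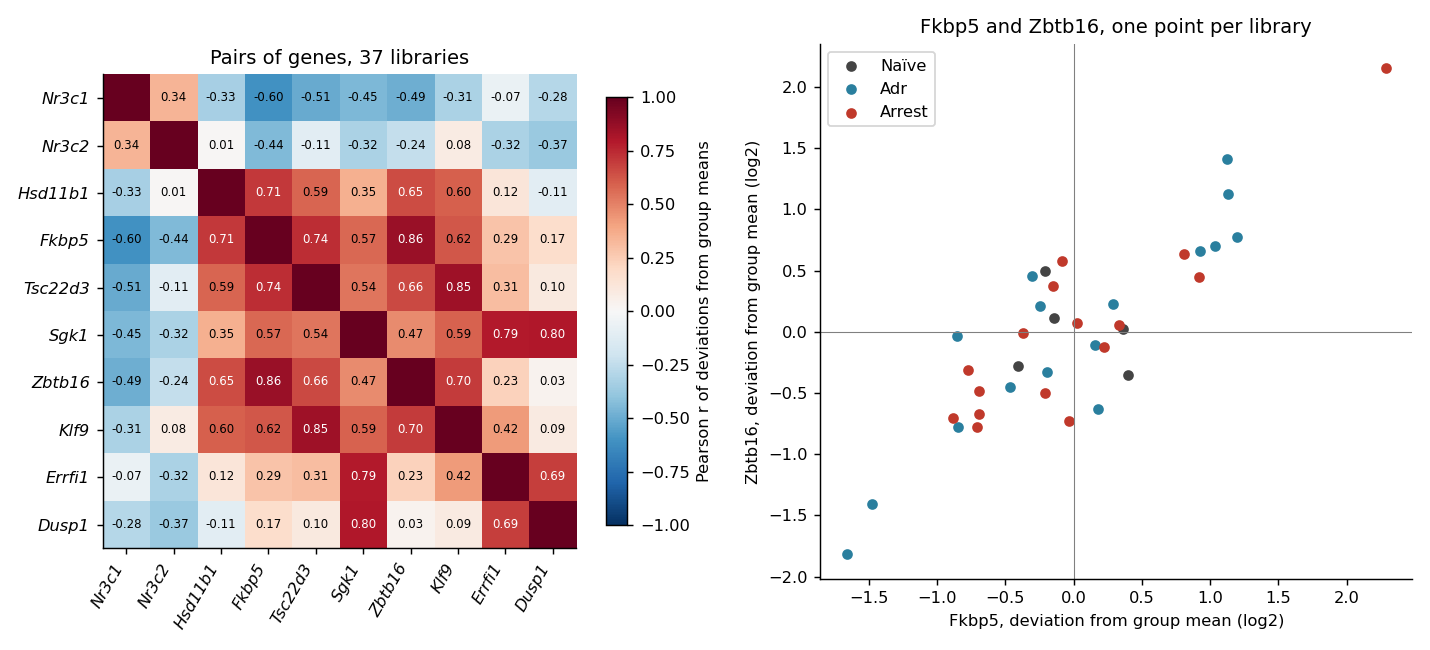
Left, Pearson's r of each pair of the 10 genes over 37 libraries, from log2(FPKM + 1) minus the group mean, with red for positive and blue for negative r; right, Fkbp5 against Zbtb16 on that scale, 1 point per library, coloured by arm. High r is seen among Sgk1, Errfi1 and Dusp1, which are not all side by side, and among Hsd11b1, Fkbp5, Tsc22d3, Zbtb16 and Klf9. Sgk1 also has positive r with each of the latter (0.35 to 0.59). The points on the right follow a line (r = 0.86).

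The genes whose log2(FPKM + 1) was most like that of each of the 10 were searched among 11539 genes with a mean of at least 1 FPKM. This likeness is over all 37 libraries with group differences left in, and is a description. Fkbp5 was most like Slc43a3, a nucleobase transporter (r = 0.95), Serinc3 (r = 0.93) and the kinase gene Map3k6 (r = 0.93). Zbtb16 was most like Xdh, xanthine dehydrogenase (r = 0.92), Hsd11b1 like the dipeptidase gene Dpep1 (r = 0.89) and Tsc22d3 like the mTOR inhibitor gene Ddit4 (r = 0.87). Sgk1 was most like S1pr1, the sphingosine-1-phosphate receptor of endothelium (r = 0.90), Dusp1 like Apold1 (r = 0.89) and Errfi1 like the matricellular gene Ccn1 (r = 0.80). Nr3c1 was most like the cyclin gene Ccnd2 (r = 0.88), Klf9 like Retreg1 (r = 0.85) and Nr3c2 like the ephrin receptor gene Epha4 (r = 0.76).

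A wider list of 32 genes named as glucocorticoid targets was all tested. It had 7 that rose and 0 that fell in Arrest at 0.5 days, and 8 that rose and 0 that fell at 1 day. This list, like the others used here, was chosen with earlier results of these data known, so these counts are a description only. Of all genes, 1.75% rose at 0.5 days and 3.89% at 1 day. The list's median log2 fold change was 0.72 and 0.63, against 0.03 over all genes in both. No gene of the list passed in Arrest at 3 or 7 days or in Adr at any time, when 0 to 0.627% of all genes did. In Adr the list's median was 0.52 at 0.5 days and 0.23 at 1 day. The largest rises were in Serpina3n, an acute phase protease inhibitor, Lcn2, which encodes the iron-sequestering lipocalin-2, and Mt1, a metallothionein. The Naïve libraries held 1.49 to 18.9 FPKM of Serpina3n and the Arrest libraries 105 to 193 FPKM at 0.5 days and 94.7 to 218 FPKM at 1 day, without overlap, a rise of 4.75 (SE 0.88, adjusted p = 0.0034) and 4.94 (SE 0.88, adjusted p = 0.0011) on the log2 scale. Lcn2 rose by 3.85 and 3.90 and Mt1 by 2.76 and 2.86 on the log2 scale. Cdkn1a, the cell cycle inhibitor p21, rose by 2.02 at 0.5 days, and Map3k6 by 1.90 at 1 day. This list and 5 others of the pathway together had 8 calls at 0.5 days and 14 at 1 day. Leaving out replicate 2 of Arrest at 0.5 days gave 3, and leaving out replicate 1 or 3 of Arrest at 1 day gave 6 or 4. Calls over all genes in those fits are not given here, so the drop cannot be set against theirs. The description number as a covariate gave 0 at 1 day, where calls over all genes went from 1179 to 34. Several genes of the wider list also answer to cytokines or metals, and the list does not separate these inputs.

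None of these genes passed in Adr. For Serpina3n the log2 fold change there was 2.76 (SE 0.88, adjusted p = 0.15) at 0.5 days and 3.17 (SE 0.88, adjusted p = 0.078) at 1 day, and that of Mt1 1.71 (SE 0.52, adjusted p = 0.13) at 0.5 days. Between Arrest at 1 and 7 days, 5 of the 32 were higher at 1 day and 0 lower, against 1.14% and 0.742% of all genes. Over all 9 groups 7 of the 32 differed, against 3.89% of all genes.

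Of 10 genes for receptor chaperones and transport, 0 passed in Arrest at 0.5 days and 1 fell at 1 day, Ipo13, an importin that carries the receptor into the nucleus (log2 fold change -0.64, SE 0.18, adjusted p = 0.025). Of 10 receptor coregulators, 0 passed at 0.5 days and 2 fell at 1 day, the coactivator Ncoa2 (-0.53, adjusted p = 0.015) and the mediator subunit Med1 (-0.50, adjusted p = 0.027). Of all genes, 3.22% fell and 3.89% rose in Arrest at 1 day, and 3.2% passed at 0.5 days. None of the 5 genes of steroid metabolism and transport passed, nor any of the 4 tested among 8 genes of the mineralocorticoid pathway. Among 16 tested relatives of the 10 genes, the MAP kinase phosphatase gene Dusp5 rose at 0.5 days (1.20) and at 1 day (0.88), Klf4 rose at 1 day (0.91) and Dusp10 fell at 1 day (-0.90). None of these 5 lists had a gene that passed in Adr against Naïve, when 0 to 0.627% of all genes did. Their median log2 fold changes in Arrest at 0.5 days ran from -0.10 to 0.15, apart from the mineralocorticoid genes (0.59).

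Glucocorticoid targets overlap with the circadian clock, whose Per1 gene holds a response element. Of 14 tested clock and clock output genes, 2 fell in Arrest at 0.5 days, the output factor Dbp (log2 fold change -1.503, SE 0.39, adjusted p = 0.029) and the repressor Nr1d1 (-0.82, SE 0.20, adjusted p = 0.023), and 0 passed in Arrest at 1, 3 or 7 days or in Adr. Of all genes, 1.45% fell in Arrest at 0.5 days, and 7.11% passed at 1 day. Dbp ran from 2.41 to 15.5 FPKM among the Naïve libraries and from 1.48 to 3.53 FPKM in Arrest at 0.5 days. The part of collection time in the values of the 10 genes was not tested.

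Markers of the cells that a ventricle can hold were examined next. Of all genes, 3.2% passed in Arrest at 0.5 days, 7.11% in Arrest at 1 day and 0.627% in Adr at 1 day. With so few markers per cell type, the counts that follow do not show that cell content was unchanged. In Arrest at 0.5 days the endothelial marker Emcn rose and Kdr fell, and 0 passed among the markers of cardiomyocytes, fibroblasts, smooth muscle, monocytes and macrophages, neutrophils, lymphocytes, atrial muscle, adipocytes, skeletal muscle and erythroid cells. At 1 day the smooth muscle marker Myh11 and the skeletal muscle marker Mylpf fell besides the endothelial changes given above, and Myh11 also fell in Adr at 1 day. These markers were named after their values were seen. Atrial muscle markers, of which 0 of 5 passed, were uneven between libraries, at a summed 16.3 to 33.8 FPKM in Naïve, 31.8, 713, 185 and 51.9 FPKM in Adr at 1 day, 31.3 to 207 FPKM in Adr at 7 days and 33.6 to 73.96 FPKM in Arrest at 1 day. The same markers summed to 24.9 to 504 FPKM in Adr at 3 days. In Arrest they summed to 12.6 to 139 FPKM at 3 days and 18.0 to 271 FPKM at 7 days. Their median log2 fold change from Naïve was 2.68 in Adr at 1 day and 2.23 at 7 days. The part of atrial tissue in the values of either arm was not tested. The 6 cardiomyocyte markers summed to 10934 to 13004 FPKM in Naïve and to 12682 to 14587 FPKM in Arrest at 1 day. Neutrophil markers summed to 0 to 9.74 FPKM in Naïve and 5.81 to 19.3 FPKM in Arrest at 1 day, with 1 of the 6 at 0 in every library. The median log2 fold change of the 4 tested neutrophil markers was 1.32 at 0.5 days and 1.27 at 1 day. The study reported an early influx of neutrophils into Arrest hearts, by flow cytometry and by tissue staining. In replicate 1 of Arrest at 3 days, the high library for Fkbp5, Zbtb16, Tsc22d3 and Hsd11b1, cardiomyocyte markers summed to 6549 FPKM against 8275 to 12423 FPKM in the others, neutrophil markers to 31.4 FPKM against 3.38 to 7.31 FPKM, and endothelial markers to 361 FPKM against 236 to 273 FPKM. Their part in those values was not tested.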

How the data were processed

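RNA from left ventricle was sequenced by Novogene, and the authors checked reads with FastQC, aligned them with HISAT2 and tested genes with DESeq2. FPKM values of the 37 libraries, beside lengths and symbols of the genes, are what the authors deposited, in 1 table. The genome build, annotation, counting tool and strand are not given in the sources used here. The deposited gene starts matched RefSeq GRCm38 for 0 of the 10 genes, so no coordinates of the table are printed. Multiplied by gene length, 100% of the values were whole numbers of fragments (tolerance 0.1). This gave the fragments per library, whose totals limit the precision of low values. Of all symbols, 77 belong to more than 1 gene ID, none of them among the 10 genes. Columns of samples left unused numbered 0. No 2 libraries of a group were copies (lowest chi-square per gene 11.7 over 58 pairs).

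Groups came from the sample labels. Genes reaching 0.5 FPKM in 4 or more libraries (16579) were fitted as log2(FPKM + 1) with limma 3.58.1 in R 4.3.3 (1 mean per group, eBayes with trend, Benjamini-Hochberg within each comparison, threshold 0.05). The model and the correlations were tested on simulated data. Correlations used deviations from group means, 100000 permutations within groups and adjustment over 45 pairs. Named are the 10 genes, from each pathway list at most the 4 largest rises and 4 largest falls past the threshold per comparison with Naïve, and for each of the 10 the gene with the highest r (3 for Fkbp5). The genes and lists were chosen with earlier results of these data known. Alternatives were other scalings, pseudocount, filters, removal of the length trend, sample weights, voom, covariates, a replicate block and leaving out each library. Sex, for a covariate, was inferred from expression. Figures were drawn with matplotlib 3.10.9.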

Additional observations from a re-analysis of the deposited data

Results flagged for a closer look

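In 90 sets of libraries (10 genes in 9 groups), 5 single values lay far from the rest of their group by Dixon's test. Chance alone does this in about 1 of 20 sets, so the count is near that of chance. The flags in Arrest at 3 days fall on 1 library, in genes that varied together between mice. Replicate 1 of Arrest at 3 days was far above its group for Fkbp5 (25.8 FPKM, others 1.98 to 2.39), Tsc22d3 (64.1 FPKM, others 38.3 to 40.8) and Zbtb16 (19.7 FPKM, others 1.71 to 1.92). Replicate 1 of Adr at 1 day was far below its group for Zbtb16 (1.79 FPKM, others 12.5 to 15.004). Replicate 2 of Adr at 7 days was far below its group for Nr3c2 (1.75 FPKM, others 2.96 to 3.13).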

How the results depend on the processing

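Among the fold changes of the 10 genes, 24 calls were lost, 13 gained and 4 directions reversed under the alternatives that keep every library, and 34 calls were lost and 6 gained in the fits that left 1 out. The reversals were Dusp1 in Adr at 3 days against Naïve (-1.13), in Arrest at 1 day against Naïve (-0.35) and in Arrest against Adr at 3 days (0.28), all with the description number as a covariate, and Klf9 in Arrest against Adr at 3 days with sample weights (-0.17). None of these 4 passed in either fit, and the cause was not tested. With pseudocount 0.1, sample weights, sex as a covariate and a fit of only the groups compared, Hsd11b1 was added in Arrest at 0.5 days. The number of the 10 genes called there rose from 2 to 3, and calls over all genes went from 531 to 564, 725, 548 and 360. In Arrest at 1 day the number was 5 with sample weights (Nr3c2 added) and 3 without a filter (Zbtb16 lost). Calls over all genes there went from 1179 to 1947 and 829. With the description number as a covariate the count among the 10 was 1 in Arrest at 0.5 days and 0 at 1 day. It was 0 in both early Adr comparisons and for Arrest at 1 against 7 days, and 1 over all groups. Calls over all genes fell too, from 531 to 235 in Arrest at 0.5 days and from 1179 to 34 at 1 day. In Adr they fell from 31 to 18 at 0.5 days and from 104 to 0 at 1 day. They went from 312 to 72 for Arrest at 1 against 7 days and from 645 to 418 over all groups. The description number partly follows the groups, and the labels do not say what it is. It runs from 116 to 127 in Naïve, from 70 to 95 in Arrest at 1 day and from 71 to 102 in Adr at 1 day. With no overlap at 1 day, the fit separates the number from the difference with Naïve only by the trend within groups. With a replicate block the count among the 10 was 1 in Arrest at 0.5 days and 2 at 1 day. It was 0 in both early Adr comparisons and 1 over all groups. Calls over all genes were then 280 and 768 in Arrest, 3 and 49 in Adr, and 408 over all groups. Without a filter the count among the 10 was 1 in Arrest at 0.5 days, 0 in Adr at 1 day and 1 over all groups. Calls over all genes (31941 tested) were then 323, 65 and 455. With voom the count was 1 in Arrest at 0.5 days and 1 over all groups, with 480 and 610 calls over all genes. The count was 0 in both early Adr comparisons with scaling by counted fragments, with the length trend removed and in a fit of only the groups compared. Over all genes, these gave 80, 10 and 32 calls at 0.5 days and 213, 20 and 21 at 1 day. For Arrest at 1 against 7 days the count was 0 with the length trend removed, 4 in a fit of only those groups and 5 with sample weights. Calls over all genes went from 312 to 208, 635 and 1811 there. Sample weights also gave 1 for Adr at 1 against 7 days and 5 over all groups, with 239 and 1652 calls over all genes.

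Among the listed pathway genes, sample weights gave 1 call in Adr at 0.5 days, 2 in Adr at 1 day, 1 for Adr at 1 against 7 days and 15 for Arrest at 1 against 7 days. Over all genes they gave 362, 233, 239 and 1811. The description number gave 0 in Arrest at 1 day and 2 for Arrest at 1 against 7 days, beside 34 and 72 over all genes. For Arrest at 1 against 7 days, no filter, quantile normalization and a replicate block gave 3 each, beside 209, 231 and 285 over all genes. The block gave 4 over all groups, beside 408 over all genes. Leaving out 1 library at a time gave 1 to 3 of the 10 genes in Arrest at 0.5 days, 1 to 6 at 1 day, 0 to 1 in Adr at 0.5 and at 1 day, 0 to 3 for Arrest at 1 against 7 days and 1 to 3 over all groups. For the pathway genes it gave 3 to 11 in Arrest at 0.5 days, 4 to 17 at 1 day, 0 to 1 at 3 days, 0 to 1 in Adr at 0.5 and at 1 day, 0 to 1 for Arrest against Adr at 1 day, 0 to 10 for Arrest at 1 against 7 days and 4 to 10 over all groups. Calls over all genes can move in such fits too, as from 7.11% to 10.3% for Arrest at 1 day without replicate 3 of Adr at 3 days. Replicate numbers in the labels did not pair the libraries. Over 144 pairs with the same number, deviations from group means correlated with a mean r of -0.008 (range -0.29 to 0.27, 11 above 0.1), and replicate 5 exists in Naïve only. The Adr differences of Fkbp5 at 0.5 and 1 days had 95% intervals above 0 (0.64 to 2.98 and 0.26 to 2.61) and failed the adjustment over all genes.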
